A study of Mus musculus with 12 samples.

Results

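Genes of the red cell membrane and its spectrin skeleton were followed through a mouse erythroid cell line in which GATA1 activity and active SREBP2 were each supplied alone or together. The members were the rows of the gene count table that carry the symbols Slc4a1, Ank1, Sptb, Epb41, Epb42, Gypc, Add2 and Tmod1, which is 8 of 17210 genes, and all 8 passed the filter on low counts among the 11177 genes tested. In the order just given, their Entrez identifiers are 20533, 11733, 20741, 269587, 13828, 71683, 11519 and 21916. G1E-ER4 is an erythroid progenitor line that lacks its own GATA1 and carries GATA1 fused to the ligand-binding part of the estrogen receptor, so estradiol (EST) brings the fusion into action, and all 12 libraries came from this 1 line. The groups were Vector (empty retrovirus, no EST), SREBP2 (retrovirus for residues 1 to 468, the active nuclear form, no EST), Vector+EST and SREBP2+EST, with 3 libraries each. Transduction lasted 24 h and EST treatment 6 h. For EST, the protocol of the samples gives 500 nM, whereas the text of the series gives 200 nM. The labels give the strain as C57BL/6J and the cell type as embryonic stem cells, and the medium held stem cell factor and erythropoietin in every group.

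The red cell membrane is held by a lattice of spectrin tetramers beneath the lipid bilayer, which lets the cell deform and recover in the circulation. Ankyrin ties the lattice to the anion exchanger band 3 with the help of protein 4.2, and a second attachment, the junctional complex, joins spectrin ends to short actin filaments through protein 4.1, adducin and tropomodulin, with glycophorin C as its membrane anchor. Loss of band 3, ankyrin, spectrin or protein 4.2 is known from hereditary spherocytosis, and loss of protein 4.1 from hereditary elliptocytosis.

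Values are given as CPM, the counts of a gene scaled to the total of its library with the TMM correction for composition, and each library carries its group and the number of its column in the count table. Total estimated counts ran from 18700959 to 19152281 per library, and a count of 3, the floor used here, was worth at most 0.163 CPM. Srebf2, which encodes SREBP2, was at 361 ± 8.32 CPM in Vector, 816 ± 20.1 in SREBP2, 442 ± 13 in Vector+EST and 808 ± 6.66 in SREBP2+EST (SD, n = 3). These are counts of the mouse gene, whereas the paper quantified human SREBP2 in overexpressing cells. Whether reads of the retroviral SREBP2 are among them was not tested. Gata2, known to be repressed when GATA1 acts, was at 644 ± 17.7, 131 ± 2.8, 156 ± 4.55 and 135 ± 8.82 CPM in the same order, so it was low in SREBP2 cells that had received no EST. All 10 erythroid markers listed were tested. Together they held 8180 to 8570 CPM per library in Vector, 6650 to 7740 in SREBP2, 7020 to 7090 in Vector+EST and 6520 to 7180 in SREBP2+EST. Most of the sum was Hba-a1 and Hbb-b1, and single markers went both ways. From Vector to Vector+EST, Hba-a1 went from 3090 to 1740 CPM and Tal1 from 479 to 99.8, but Alas2 from 52.1 to 138 and Gfi1b from 292 to 752. None of the 8 embryonic stem cell markers passed the filter, and the 4 in the table summed to at most 0.647 CPM. The libraries labelled SREBP2 1 and SREBP2+EST 1 went against their labels. By chi-square per gene, SREBP2 1 lay 7.95 and 10.3 from the other libraries of its group but 3.69 and 4.77 from SREBP2+EST 2 and 5, and SREBP2+EST 1 lay 6.06 and 6.16 from its own group but 1.93 and 3.09 from SREBP2 3 and 5. Between the remaining libraries of each group the distance was 1.8 to 3.24. No library was moved between groups, and called values of members that moved by over 1.5 times without them are given both ways.

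Of the 8 members, 5 had a promoter window in the RefSeq promoter table on GRCm38.p6 (7 windows of 300 bases, 250 before and 50 after the start). They were searched because EST acts through GATA1, which binds GATA words, and SREBP2 binds sterol response elements. The stretches upstream of the gene of 3 members that differed in direction are shown on the strand of the gene, with a GATA word in capitals. Epb41 fell in every group against Vector, Add2 fell with EST and rose with SREBP2, and Sptb rose in every group.
Epb41, chr4:132075347-132075563, minus strand: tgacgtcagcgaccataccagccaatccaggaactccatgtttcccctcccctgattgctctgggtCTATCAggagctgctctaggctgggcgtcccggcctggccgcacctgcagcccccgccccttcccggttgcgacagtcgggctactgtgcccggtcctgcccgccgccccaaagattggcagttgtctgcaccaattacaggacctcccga
Add2, chr6:86028431-86028680, plus strand: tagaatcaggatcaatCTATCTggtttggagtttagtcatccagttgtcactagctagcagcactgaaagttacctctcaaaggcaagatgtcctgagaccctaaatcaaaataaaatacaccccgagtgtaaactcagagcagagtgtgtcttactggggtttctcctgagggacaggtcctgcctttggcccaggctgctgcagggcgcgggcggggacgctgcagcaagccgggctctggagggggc
Sptb, chr12:76710548-76710797, minus strand: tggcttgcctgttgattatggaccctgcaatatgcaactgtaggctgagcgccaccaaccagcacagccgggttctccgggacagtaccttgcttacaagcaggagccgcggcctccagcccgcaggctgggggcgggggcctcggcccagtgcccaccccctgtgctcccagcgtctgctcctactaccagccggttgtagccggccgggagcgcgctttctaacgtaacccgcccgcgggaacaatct

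The capitals are CTATCA in Epb41, which reads TGATAG on the other strand and lies 184 bases before the start, and CTATCT in Add2, which reads AGATAG and lies 234 bases before the start. The printed stretch of Sptb holds no GATA word, and its window has AGATAG on the other strand 13 bases after the start. The words searched on both strands were GATA preceded by A or T and followed by A or G, then TCACCCCAC for the sterol response element, and CCACACCC for the CACCC box bound by KLF1. At least 1 GATA word stood in 29.8% of all 32851 windows, the sterol word in 0.551% and the CACCC word in 3.56%, and none of the members' windows held the last 2. A GATA word stood in 5 of the 7 windows, from 4 of the 5 members, and in Epb42 it was AGATAA on the other strand 226 bases before the start. These matches describe letters in a short window.

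Slc4a1, which encodes band 3 (chr11:102348820-102365281, minus strand), was at 67, 66.1 and 69.6 CPM in the Vector libraries, at 3.39, 5.15 and 3.58 in SREBP2, at 2.99, 2.46 and 3.13 in Vector+EST and at 3.2, 3.45 and 3.82 in SREBP2+EST. Every Vector library stood far above the other 9, which lay close together. Against Vector, Slc4a1 fell 23.6-fold with EST (log2 fold change -4.56 ± 0.11 SE, adjusted p = 7.15e-15, edgeR quasi-likelihood test), 16.7-fold with SREBP2 (-4.06 ± 0.1, adjusted p = 8.19e-15) and 19.3-fold with both (-4.27 ± 0.1, adjusted p = 5.91e-15). In bulk libraries, fewer cells of a type and less RNA per cell cannot be told apart.

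Epb42, which encodes protein 4.2, a stabiliser of the link between band 3 and ankyrin (chr2:121017891-121036877, minus strand), followed a like course. Its levels were 30, 32 and 31.6 CPM in Vector, 3.8, 5.04 and 4.89 in SREBP2, 3.85, 4.89 and 4.05 in Vector+EST and 4.56, 3.61 and 5.02 in SREBP2+EST. Again the Vector libraries lay above all others and the other 3 groups overlapped. The level fell 7.3-fold with EST (log2 -2.87 ± 0.11), 6.82-fold with SREBP2 (-2.77 ± 0.11) and 7.1-fold with both (-2.83 ± 0.11), with edgeR adjusted p-values of 1.84e-12, 1.95e-12 and 1.62e-12.

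Ank1, the erythroid ankyrin that bridges band 3 and spectrin (chr8:22974836-23150501, plus strand), differed little. It was at 405, 401 and 412 CPM in Vector, 345, 388 and 374 in SREBP2, 371, 351 and 377 in Vector+EST and 390, 333 and 347 in SREBP2+EST. Each Vector library was above every other library, by small margins. The log2 fold change was -0.15 ± 0.05 with EST (adjusted p = 0.0229, edgeR), -0.14 ± 0.05 with SREBP2 (0.0338) and -0.19 ± 0.05 with both (0.00571). The EST call was lost without Vector library 1 (adjusted p = 0.0502, edgeR) or Vector+EST library 3 (0.105), and the SREBP2 call without Vector library 1 (0.0678) or SREBP2 library 1 (0.134). With both, the log2 difference was -0.29 without SREBP2 library 1 and SREBP2+EST library 1.

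Sptb, the beta chain of erythroid spectrin (chr12:76580488-76710547, minus strand), rose in every group against Vector. Vector libraries held 274, 279 and 289 CPM, SREBP2 libraries 853, 835 and 764, Vector+EST libraries 831, 764 and 820, and SREBP2+EST libraries 832, 779 and 797. The 9 libraries with EST or SREBP2 overlapped one another and lay above all 3 Vector libraries. The rise was 2.87-fold with EST (log2 1.52 ± 0.05, adjusted p = 1.19e-13, edgeR), 2.91-fold with SREBP2 (1.54 ± 0.05, adjusted p = 6.63e-14) and 2.86-fold with both (1.52 ± 0.05, adjusted p = 8.01e-14). Sptan1, the alpha spectrin of other tissues, also rose, from 6.53 CPM to 28.5 with EST and 25.9 with SREBP2.

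**Figure D1:**
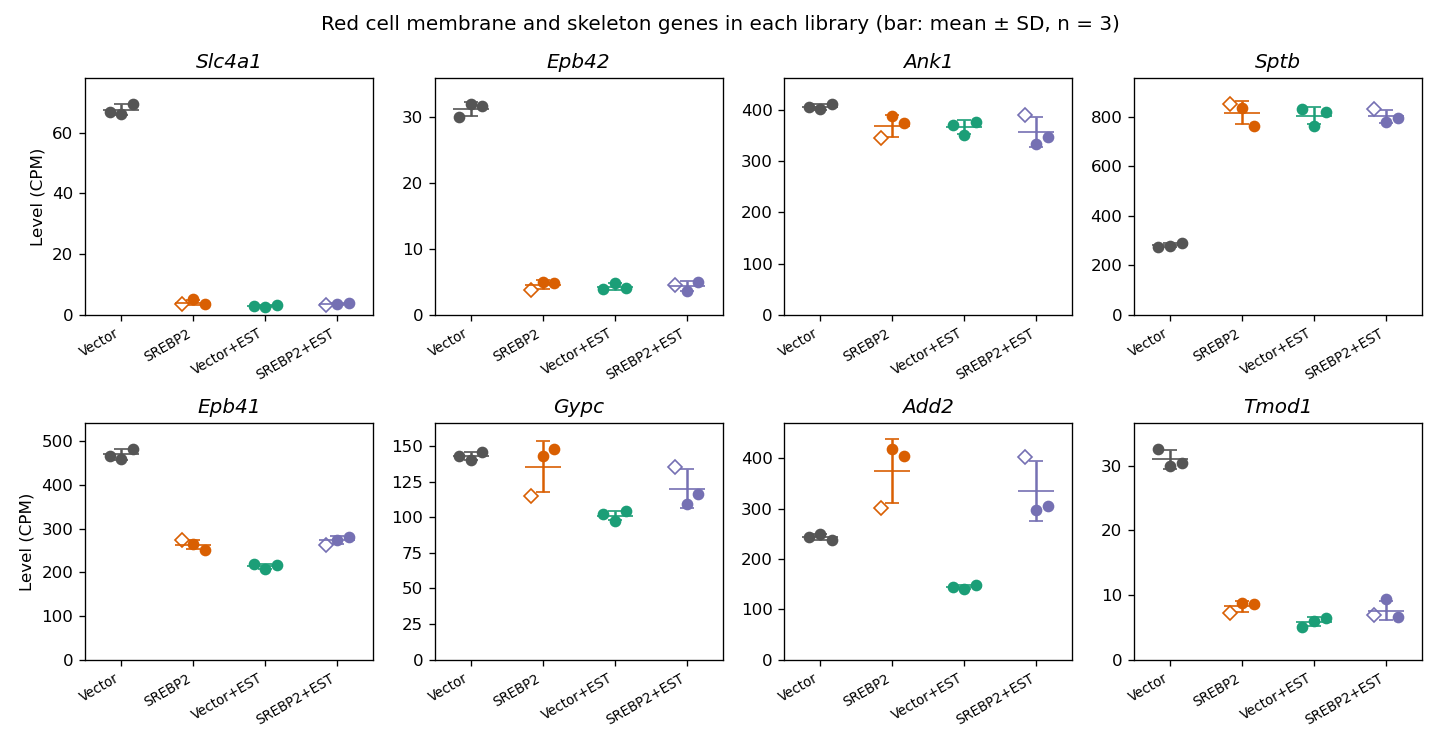
Level of each of the 8 genes in CPM (vertical axes, each from 0) in the 12 libraries, by group. Points are libraries, open diamonds mark SREBP2 library 1 and SREBP2+EST library 1, and bars give the mean ± SD (n = 3). Slc4a1, Epb42 and Tmod1 were high in Vector alone, Sptb was low in Vector alone, and Add2 was lowest in Vector+EST.

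The members of the junctional complex, Epb41, Tmod1, Gypc and Add2, all fell with EST, and Add2 alone among them rose with SREBP2. Epb41, which encodes protein 4.1, the protein that strengthens the contact of spectrin with actin (chr4:131923413-132075346, minus strand), was at 467, 460 and 483 CPM in Vector, 273, 265 and 252 in SREBP2, 219, 207 and 216 in Vector+EST and 263, 275 and 281 in SREBP2+EST. Vector was highest, Vector+EST lowest, and the SREBP2 groups overlapped each other between them. Epb41 fell 2.19-fold with EST (log2 -1.13 ± 0.04, adjusted p = 6.56e-13, edgeR) and 1.78-fold with SREBP2 (-0.83 ± 0.04, adjusted p = 1.8e-11). With both, it fell 1.72-fold (-0.78 ± 0.04, adjusted p = 3.65e-11).

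Tmod1, which encodes the tropomodulin that caps the pointed ends of the actin filaments (chr4:46038940-46116032, plus strand), was at 32.6, 29.9 and 30.4 CPM in Vector. SREBP2 libraries held 7.3, 8.78 and 8.63 CPM, Vector+EST libraries 5.1, 6.05 and 6.42, and SREBP2+EST libraries 6.85, 9.31 and 6.66. The Vector libraries lay above the rest, and Vector+EST lay below both SREBP2 groups. It fell 5.28-fold with EST (log2 -2.4 ± 0.11, adjusted p = 1.89e-11, edgeR), 3.76-fold with SREBP2 (-1.91 ± 0.11, adjusted p = 1.54e-10) and 4.07-fold with both (-2.02 ± 0.11, adjusted p = 8.25e-11). The gene shares 1287 exon bases with Tstd2 on the opposite strand, and no source used here states that strand was kept in counting. Tstd2 was at 47 CPM in Vector, 36.9 in SREBP2, 39.6 in Vector+EST and 37.9 in SREBP2+EST. Its part in the Tmod1 values was not tested. Exon bases are also shared with genes of the opposite strand by Ank1 (862 with Gm15816, at 1.43 to 1.77 CPM in the group means), Add2 (356 with Gm44089) and Epb41 (142 with Gm10300 and 91 with Gm13063). The deposited estimates were whole numbers in 12 of 12 libraries for Slc4a1, Sptb, Gypc and Add2, in 10 for Epb41, in 1 for Tmod1 and in 0 for Ank1 and Epb42, and a value that is not whole is one where the estimate divided reads between features.

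Gypc, which encodes glycophorin C, was at 143, 140 and 146 CPM in Vector, 115, 143 and 148 in SREBP2, 102, 97.5 and 104 in Vector+EST and 135, 109 and 116 in SREBP2+EST. Vector and SREBP2 overlapped, and Vector+EST was below every other library. Gypc fell 1.41-fold with EST (log2 -0.5 ± 0.08, adjusted p = 5.19e-05, edgeR) and 1.19-fold with both (-0.25 ± 0.08, adjusted p = 0.0117). With SREBP2 the log2 difference was -0.08 ± 0.08 (adjusted p = 0.414), and it was -0.01 without SREBP2 library 1 and SREBP2+EST library 1, where the difference with both was -0.38.

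Add2, which encodes beta adducin, a cap of actin filaments that recruits spectrin (chr6:86028681-86124409, plus strand), was the 1 member called in opposite directions among the comparisons with Vector. It was at 244, 249 and 237 CPM in Vector, 302, 419 and 405 in SREBP2, 145, 141 and 149 in Vector+EST and 403, 297 and 305 in SREBP2+EST. No SREBP2 or SREBP2+EST library overlapped Vector, and Vector+EST lay below all 9 others. Add2 fell 1.68-fold with EST (log2 -0.75 ± 0.11, adjusted p = 1.87e-05, edgeR), rose 1.54-fold with SREBP2 (0.62 ± 0.11, adjusted p = 8.78e-05) and rose 1.38-fold with both (0.46 ± 0.11, adjusted p = 0.00134). With both, the log2 difference was 0.27 without SREBP2 library 1 and SREBP2+EST library 1. Summed megakaryocyte markers, of which 4 of 7 were tested, were also higher in the SREBP2 groups, at 88.2 to 107 and 95.3 to 113 CPM against 55.1 to 63.3 in Vector and 44.1 to 52.9 in Vector+EST. Most of the sum in the SREBP2 groups was Pf4, at 9.46 CPM in Vector, 47.7 in SREBP2, 6.12 in Vector+EST and 44.5 in SREBP2+EST, and Gp1ba, at 17.2, 43.5, 36.9 and 49.8 in the same order. The other 2 tested markers were highest in Vector, with Itga2b at 28.1 CPM in Vector, 7.23 in SREBP2, 5.14 in Vector+EST and 6.55 in SREBP2+EST, and Gp9 at 2.87, 0.772, 0.681 and 0.612. Summed myeloid and mast cell markers, 2 of 7 tested, were at 65.9 to 72.8 CPM in Vector, 70.3 to 83.1 in SREBP2, 38.5 to 42.9 in Vector+EST and 75.4 to 81.6 in SREBP2+EST. Most of this sum was Spi1, at 56.8 CPM in Vector, 73.9 in SREBP2, 38.3 in Vector+EST and 74.5 in SREBP2+EST. The mast cell gene Cpa3 was at 11.9 CPM in Vector, 3.79 in SREBP2, 2.02 in Vector+EST and 3.38 in SREBP2+EST. The part of these cell markers in the Add2 result was not tested.

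**Figure D2:**
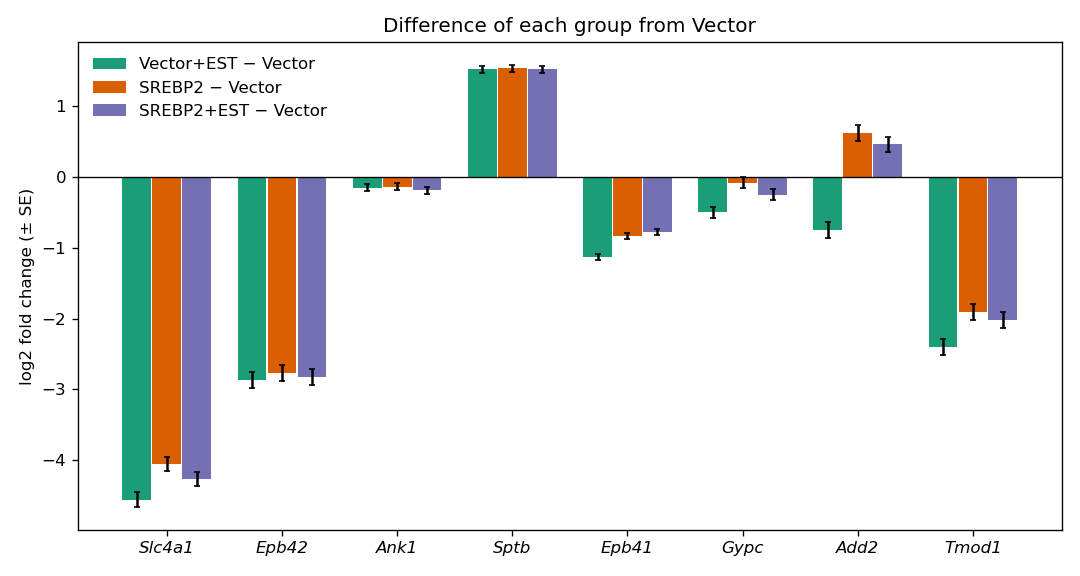
Log2 fold change of each member against Vector (vertical axis) with EST, with SREBP2 and with both, as edgeR estimates with SE bars. Sptb is the one member above 0 in all 3 comparisons, and Add2 is below 0 with EST and above 0 in both SREBP2 groups.

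With EST in Vector cells, 7 members fell and 1 rose, where 70.6% of all genes tested were called (35.2% higher and 35.5% lower, edgeR adjusted p under 0.05). The groups did not overlap for 8 of 8 members, against 75.7% of all genes. The median log2 fold change of the members was -0.94 and that of all genes 0.01. Neural markers, 2 of 5 tested, also summed highest in Vector, at 8.79 to 10.1 CPM against 1.86 to 4.26 in the other groups, as Slc4a1, Epb42 and Tmod1 did, and most of the sum was Tubb3, at 7.98 CPM in Vector and 1.13 to 2.04 in the other groups. The other tested neural marker, Map2, was at 0.741 CPM in Vector, 0.968 in SREBP2, 0.812 in Vector+EST and 0.475 in SREBP2+EST. Fibroblast markers, 5 of 6 tested, summed to 19.2 to 19.9 CPM in Vector, 4.03 to 5.42 in SREBP2 and 4.71, 4.74 and 36.3 in Vector+EST. The Vector sum was almost all Col1a2, at 19.5 CPM, and the other 5 were at 0.0171 to 0.102 CPM there. The part of both marker lists in these results was not tested. The labels do not state that libraries came from separate cultures, so p-values measure only the spread between these libraries, which may be technical.

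For active SREBP2 without EST, 2 members were higher, 5 lower and Gypc was not past the threshold, where 71.5% of all genes were called (37.7% higher and 33.8% lower). The groups did not overlap for 7 of 8 members, against 74.8% of all genes. The median was -0.49 for the members and 0.03 for all genes. Both comparisons use the Vector libraries, so the values above stand side by side and their likeness was not tested. For SREBP2+EST against Vector, 2 members were higher and 6 lower, where 72.7% of genes were called (38.6% higher and 34.2% lower), and the groups did not overlap for 8 of 8 members against 76.4% of genes.

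SREBP2 and Vector+EST, each with 1 of the 2 treatments, were also compared directly. Here 5 members were higher in SREBP2 and 0 lower, where 23.4% of genes were called (14.4% higher and 8.96% lower). Add2 was 2.59-fold higher (log2 1.37 ± 0.11, adjusted p = 1.12e-07, edgeR), Gypc 1.34-fold (0.42 ± 0.08, adjusted p = 0.00145) and Epb41 1.23-fold (0.3 ± 0.04, adjusted p = 4.02e-05). Tmod1 was 1.4-fold higher (0.49 ± 0.13, adjusted p = 0.0139) and Slc4a1 1.41-fold higher (0.5 ± 0.16, adjusted p = 0.0321). The log2 differences of Ank1, Sptb and Epb42 were 0.01, 0.02 and 0.1, with 95% intervals of -0.1 to 0.13, -0.07 to 0.12 and -0.21 to 0.4. The Slc4a1 call was lost without SREBP2 library 3 (log2 0.28, adjusted p = 0.255), Vector+EST library 1 (0.53, 0.0618) or Vector+EST library 3 (0.4, 0.133), and the Tmod1 call without SREBP2 library 3 (adjusted p = 0.0588) or Vector+EST library 1 (0.0734), which leaves 3 members called without SREBP2 library 3 or Vector+EST library 1, where 16.6% and 17.7% of all genes were called. With library totals in place of TMM, 42.2% of called genes were higher in SREBP2, against 61.7%.

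In EST-treated cells, 3 members of the junctional complex were higher with active SREBP2. Add2 was 2.31-fold higher in SREBP2+EST than in Vector+EST (log2 1.21 ± 0.11, adjusted p = 5.37e-07, edgeR), Epb41 1.27-fold higher (0.35 ± 0.04, adjusted p = 7.09e-06) and Gypc 1.19-fold higher (0.25 ± 0.08, adjusted p = 0.0459). This made 3 of 8 members higher and 0 lower, where 21.9% of all genes were called (14% higher and 7.94% lower), and the groups did not overlap for 5 of 8 members against 38.1% of genes. Tmod1 had a log2 difference of 0.38 ± 0.13 (adjusted p = 0.0575) and Slc4a1 of 0.29 ± 0.16 (adjusted p = 0.234), and for both every SREBP2+EST library was above every Vector+EST library. The Tmod1 difference was 0.2 (adjusted p = 0.29, edgeR) without SREBP2+EST library 2, and it passed the threshold in 3 of 12 fits that left out 1 library. The 95% intervals of the difference were -0.27 to 0.35 for Epb42, -0.15 to 0.08 for Ank1 and -0.1 to 0.09 for Sptb.

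The Gypc call was lost in 9 of 12 fits that each left out 1 library, with adjusted p-values of 0.00376 to 0.196 by edgeR, and its value without SREBP2+EST library 1 was 0.16. Without SREBP2 library 1 and SREBP2+EST library 1, 5 members were past the threshold, namely Add2 (log2 1.05), Epb41 (0.37), Gypc (0.15), Tmod1 (0.45) and, lower, Ank1 (-0.11), where 30.7% of genes were called (16.8% higher and 14% lower). These libraries were left out because they lay apart from their own groups in the same counts, which by itself narrows the spread, so the calls of this fit describe the remaining 10 libraries and are no separate evidence. With library totals in place of TMM, 42.2% of called genes were higher in SREBP2+EST, against 63.7%. Summed fibroblast markers were at 18.6 to 35.1 CPM in SREBP2+EST, where Col1a1 was at 9.04, Col1a2 at 6.91, Igfbp7 at 3.29 and Fn1 at 3.18, and their part in these differences was not tested.

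Addition of EST to cells with active SREBP2 gave no called change in any member. Their adjusted p-values were 0.919 to 0.963 by edgeR, and 0% of all genes were called. The groups overlapped for 8 of 8 members, and they did not overlap for 7.43% of all genes. At an unadjusted p under 0.05 there were 506 genes, none of them a member, and DESeq2 called 12 genes. The 95% interval of the log2 difference was -0.53 to 0.11 for Slc4a1, -0.36 to 0.25 for Epb42, -0.12 to 0.07 for Sptb and -0.4 to 0.07 for Add2.

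This count depended on the libraries labelled SREBP2 1 and SREBP2+EST 1. Without both, the log2 difference was -0.45 ± 0.04 (SE) for Add2, -0.37 ± 0.04 for Gypc and -0.16 ± 0.04 for Ank1. In that fit 3 of 8 members were past the threshold, all lower, where 13.9% of genes were called (6.18% higher and 7.7% lower). Since both libraries were left out for lying nearer the other of these groups, a wider gap between the remaining libraries follows in part from that choice, and no p-value is given. Add2 stood at 419 and 405 CPM in SREBP2 and 297 and 305 in SREBP2+EST, while SREBP2 library 1 held 302 and SREBP2+EST library 1 held 403. Slc4a1, Epb42, Sptb, Epb41 and Tmod1 were not past the threshold in that fit either.

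**Figure D3:**
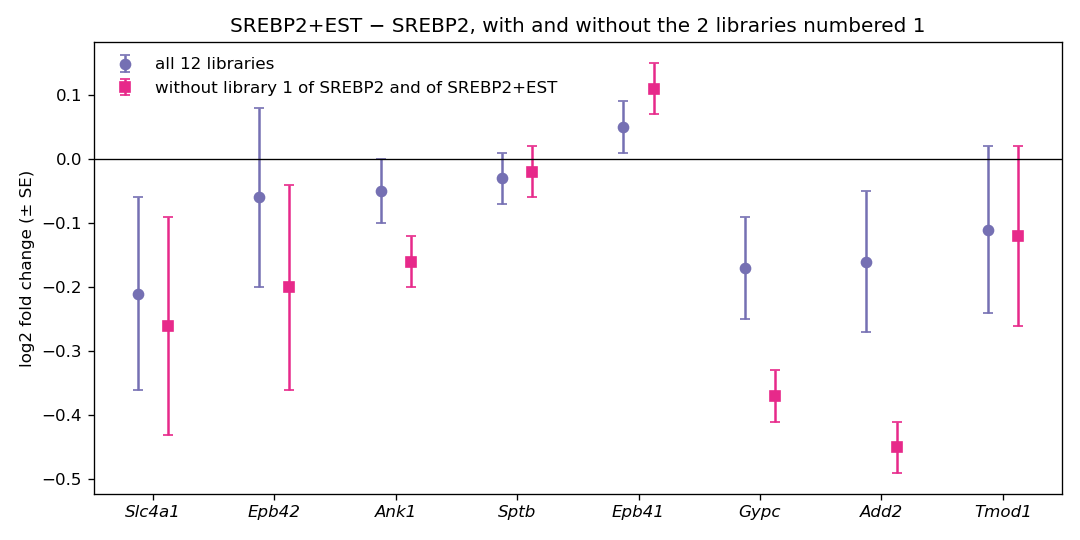
Log2 fold change of SREBP2+EST over SREBP2 for each member (vertical axis), with SE bars, from all 12 libraries (circles) and without library 1 of SREBP2 and of SREBP2+EST (squares). Add2, Gypc and Ank1 move to -0.45, -0.37 and -0.16, and Slc4a1, Epb42, Sptb, Epb41 and Tmod1 were not past the threshold in either fit.

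The effect of EST itself differed between SREBP2 and Vector cells for 7 members, where 59% of genes were called for this difference (29.8% higher and 29.2% lower). It is given as the log2 effect in SREBP2 cells minus that in Vector cells. The difference was 4.35 ± 0.2 for Slc4a1, 2.81 ± 0.19 for Epb42 and 2.29 ± 0.17 for Tmod1, which had fallen most in Vector cells. It was -1.55 ± 0.06 for Sptb. It was 0.1 ± 0.08 for Ank1 (adjusted p = 0.29, edgeR). Without EST, SREBP2 had already moved Slc4a1, Epb42, Tmod1 and Sptb by log2 -4.06, -2.77, -1.91 and 1.54 against Vector. EST then changed them by -0.21, -0.06, -0.11 and -0.03 in SREBP2 cells. The large differences therefore do not mark a return to Vector levels.

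The partners of these proteins were described from lists of skeleton, membrane and related genes, and their counts stand against 70.6% of all genes called with EST, 71.5% with SREBP2 and 21.9% with SREBP2 in EST-treated cells. Among 14 skeleton partners, 6 rose and 6 fell with EST, 7 rose and 5 fell with SREBP2, and 2 rose with SREBP2 in EST-treated cells. Stom, which encodes stomatin, a membrane scaffold of lipid domains, went from 59 CPM in Vector to 219 with EST (log2 1.89 ± 0.05, adjusted p = 8.98e-15, edgeR) and 220 with SREBP2 (1.9 ± 0.05). Dmtn, which encodes dematin, an actin-bundling protein of the junction, went from 27.3 to 66.3 and 60.8 CPM. The largest falls were those of Flot1, from 72.1 CPM to 37.8 with EST and 46.7 with SREBP2, and Actb, from 1000 to 562 and 601. The adducin partner chain Add1, alpha adducin, rose from 270 to 529 and 501 CPM, unlike Add2 with EST. Add3, gamma adducin, was at 112 CPM in Vector, 104 with EST (log2 -0.11 ± 0.04, adjusted p = 0.0361, edgeR) and 105 with SREBP2.

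Of 19 membrane partners, 17 were tested, and 4 rose and 12 fell with EST, 4 rose and 11 fell with SREBP2, and 6 rose and 1 fell with SREBP2 in EST-treated cells. Icam4, an adhesion glycoprotein of the Rh-associated complex, rose from 17 CPM to 72.5 and 63.7. Piezo1, the mechanosensitive cation channel, fell from 307 to 150 and 152, and Kcnn4, the Gardos potassium channel, from 98.3 to 29.8 and 41.6. Rhag, of the Rh complex, was at 245 CPM in Vector, 219 in SREBP2, 208 in Vector+EST and 218 in SREBP2+EST.

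Relatives of the members that serve other tissues numbered 16, of which 10 were tested. With EST 4 rose and 3 fell, with SREBP2 4 rose and 3 fell, and with SREBP2 in EST-treated cells 2 rose. Tmod3, the widely expressed tropomodulin, rose from 117 CPM to 209 with EST (log2 0.84 ± 0.04, adjusted p = 2.75e-11, edgeR) and 215 with SREBP2 (0.88 ± 0.04), while Tmod1 fell. Tgm2, a transglutaminase related in sequence to protein 4.2, fell from 142 to 15.5 and 16.5 CPM, as Epb42 did. Ank2, the ankyrin of heart and nerve, was at 31.3 CPM in Vector, 29.5 in SREBP2, 16.2 in Vector+EST and 27 in SREBP2+EST. In cells with SREBP2 no gene of the 3 lists was called for EST in the fit of all 12 libraries, where 0% of all genes were called.

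**Figure D4:**
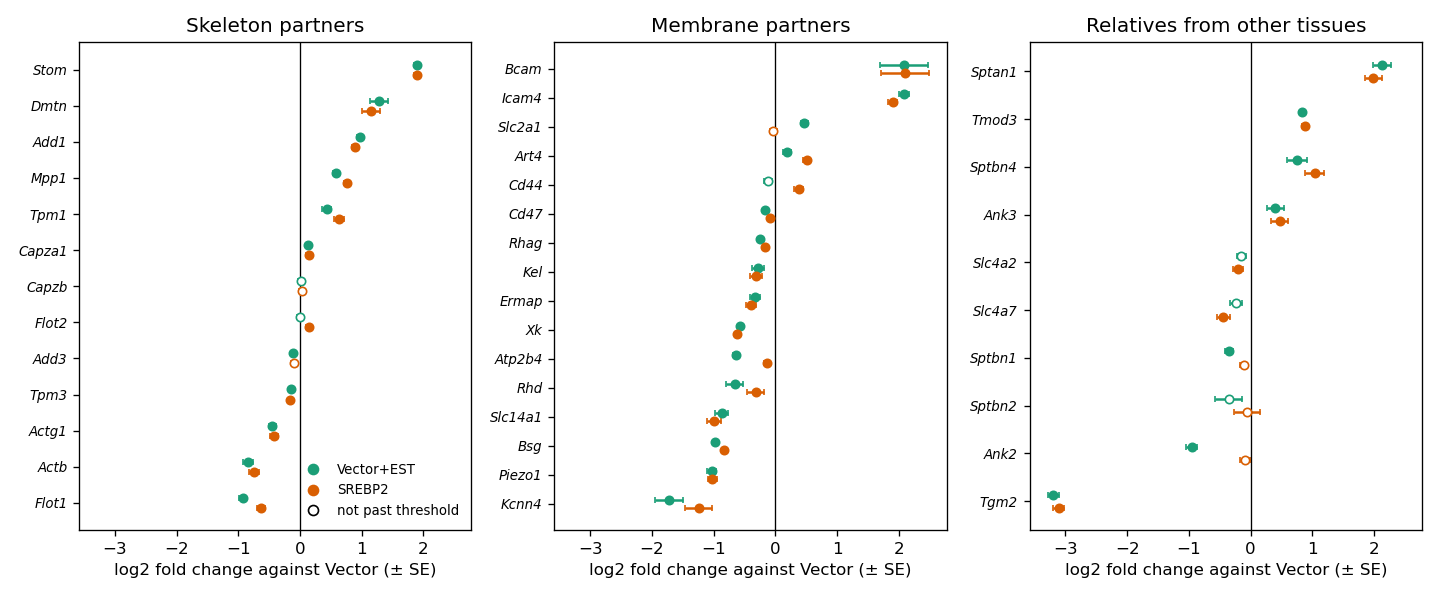
Log2 fold change against Vector (horizontal axes) with SE bars for skeleton partners, membrane partners and relatives from other tissues, with EST and with SREBP2. Filled points are past the threshold and open points are not, and 1 skeleton partner and 1 membrane partner of the lists are not drawn. Stom and Sptan1 are the highest in their panels, Bcam and Icam4 lead the membrane partners, and Tgm2 is the lowest of all.

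Per kilobase of the longest transcript, Gypc (65.6 ± 1.38 CPM per kb), Epb41 (56.6 ± 1.42) and Ank1 (49.4 ± 0.678) were the highest of the members in Vector, in that order. Add2 (29.7 ± 0.737) and Sptb (27 ± 0.735) came next, then Slc4a1 (14.9 ± 0.4), Tmod1 (9.81 ± 0.455) and Epb42 (7.58 ± 0.257), and no neighbours in this order overlapped in mean ± SD. In the other 3 groups Sptb led, at 77.2 to 78.6 CPM per kb, and Tmod1, Epb42 and Slc4a1 were the lowest 3. With the median transcript length, Epb41 (96 ± 2.41) and Add2 (78 ± 1.93) led in Vector ahead of Gypc (69 ± 1.45), and Tmod1 (17.3 ± 0.801) passed Slc4a1. Add2 then had the highest mean in both SREBP2 groups, so the order depends on the isoform. In SREBP2+EST, however, Add2 (107 ± 18.9) and Sptb (86.9 ± 2.92) overlapped in mean ± SD.

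The genes whose levels across the 12 libraries were most like a member's, were taken from 8554 candidates. They were Cln6 for Slc4a1 (Pearson r = 0.996), Git1 for Epb42 (0.997), Abca3 for Sptb (0.999), Pold2 for Epb41 (0.996), Dynll2 for Tmod1 (0.993), Acsl1 for Add2 (0.991), Trim25 for Gypc (0.968) and Emilin2 for Ank1 (0.958). Bsg, basigin, of the membrane partners was among the 3 most like Tmod1 (0.991), and Ermap among those most like Ank1 (0.951). After the group means were removed, the deviations of Gypc and Add2 over the 12 libraries had an r of 0.948, those of Ank1 and Gypc 0.911 and those of Ank1 and Add2 0.91. Without SREBP2 library 1 and SREBP2+EST library 1, an alternative added after the data were seen, these were 0.245, 0.737 and 0.612 over 10 libraries, so the first value rested on those libraries. All these correlations share libraries and depth.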

How the data were processed

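RNA from G1E-ER4 cells was taken with oligo(dT) beads and random-hexamer cDNA, and sequenced as 50-base single-end reads in 12 libraries. The authors deposited estimated gene counts (expected counts, not normalized). Per the labels, the tools were HISAT2 2.0.4, Bowtie2 2.2.5, RSEM 1.2.12 and DESeq2 1.4.5, with build GRCm38.p6, and the role of each is not stated there. A second table held only the authors' own comparisons and was not used. Values are whole numbers in 66.5% of table entries, and were rounded for the tests and not for the CPM levels.

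Genes were kept by filterByExpr, which left 11177 of 17210. TMM scaling and the edgeR 4.0.16 quasi-likelihood test (R 4.3.3, limma 3.58.1) were applied to all 12 libraries with 1 mean per group, and p-values were adjusted by Benjamini-Hochberg over all genes tested, with a threshold of 0.05. Totals of 18700959 to 19152281 estimated counts limit precision for low genes. The SE is the log2 fold change over the square root of F, and intervals are at 95%. The fit was tested on simulated counts in which a small share of genes changed, in Vector+EST alone. That setting does not cover changes as broad as those called here. Alternatives were DESeq2 1.42.0, RLE scaling, library totals, other filters, a fit of the compared groups alone, 1 library left out at a time, and both libraries of doubt left out, and the replicate block was by the header number.

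All 8 members are named whatever their values, and the values of 2 listed partners are not reported here. Of each list, named genes were a set list of partners and relatives of members and up to 2 of the largest rises and falls per comparison whose average log2 CPM reached 3, and the genes most like a member were the 3 with the highest r at an average log2 CPM of at least 3. The members, lists and tests were chosen with earlier results of these data known. Groups came from sample titles. Column headers carry the group and a number, which differs from the numbering in the titles. Gene lengths and positions came from the GRCm38.p6 annotation.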

Additional observations from a re-analysis of the deposited data

Results flagged for a closer look

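The effect of EST in SREBP2 cells minus that in Vector cells passed the test of the difference (edgeR quasi-likelihood, interaction term) for 7 members, where 59% of all genes were called. It was 4.35 for Slc4a1 on the log2 scale (adjusted p = 5.18e-11), 2.81 for Epb42 (2.94e-09), 2.29 for Tmod1 (1.45e-08), 1.18 for Epb41 (7.37e-11), 0.58 for Add2 (0.00439), 0.32 for Gypc (0.026) and -1.55 for Sptb (1.49e-11). SREBP2 without EST had already moved Slc4a1, Epb42, Tmod1 and Sptb by log2 -4.06, -2.77, -1.91 and 1.54 against Vector. The Gypc call was lost without SREBP2+EST library 1 (0.23, adjusted p = 0.0763) or Vector+EST library 3 (0.3, adjusted p = 0.0648). Without SREBP2 library 1 and SREBP2+EST library 1 the values of Add2 and Gypc were 0.34 and 0.16.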

How the results depend on the processing

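Of the values of single members under the alternatives, 1050 kept their direction and side of the threshold, 29 lost the call, 9 gained it and 24 reversed, all 24 from differences that were not called. Over 13 same-numbered pairs of libraries the correlation of deviations was -0.174 to 0.0674, and over differently numbered pairs it was -0.0761 to 0.128. With 3 libraries per group, these values cannot show whether the header numbers mark shared cultures. With the replicate block, 1208 genes were called for SREBP2 with EST, against 2448. Without SREBP2 library 1 and SREBP2+EST library 1, 5 members passed for SREBP2 with EST, and for EST in SREBP2 cells 3 members and 1567 genes passed, against 0 and 0, which follows in part from leaving out libraries for lying apart from their groups. The latter count of genes was 22 with no filter, 8 with only the libraries compared, 12 with DESeq2, and 0 to 18 leaving out each library. Members called for SREBP2 against Vector+EST numbered 3 to 5 leaving out each library, where 1885 to 3234 of all genes were called. Ank1 calls against Vector were lost under the replicate block (adjusted p = 0.0624 with EST, 0.0821 with SREBP2, 0.0961 with both, edgeR), as was that of Gypc with both (0.126), and the Gypc call for SREBP2 with EST had adjusted p-values of 0.0682 with RLE, 0.0689 with library totals and 0.0811 with the block. Slc4a1 for SREBP2 against Vector+EST had 0.0749 with the block and 0.0995 with only the libraries compared.

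Reversed log2 values were, for SREBP2 with EST, -0.01 for Epb42 (library totals) and 0.01 for Ank1 and 0.01 for Sptb (replicate block); for EST in SREBP2 cells, 0 for Ank1 and 0.16 for Epb42 (replicate block); and for SREBP2 against Vector+EST, -0.03 for Ank1 and -0.02 for Sptb (library totals) and -0.01 for Sptb (without both libraries of doubt). Leaving out each library, ranges that crossed 0 were -0.15 to 0.03 for Gypc (SREBP2 without EST), -0.11 to 0.01 for Ank1, -0.04 to 0.02 for Sptb and -0.07 to 0.16 for Epb42 (SREBP2 with EST), -0.07 to 0.01 for Sptb, -0.32 to 0 for Slc4a1 and -0.18 to 0.06 for Epb42 (EST in SREBP2 cells), and -0.03 to 0.06 for Ank1 and -0.02 to 0.07 for Sptb (SREBP2 against Vector+EST). The cause was not tested. In the 3 groups other than Vector, depth limits Slc4a1, Epb42 and Tmod1, whose lowest libraries held 47, 66.97 and 98.9 estimated counts.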
